A study of Homo sapiens with 4 samples.

Results

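The 2 arrays compared here held RNA of HT29 and of DLD1 cells, both kept without glucose, 2 of the 4 arrays of the series. They were chosen by their medium alone, which held 2 mM glutamine, 0 mM glucose and 10% dialysed fetal bovine serum for 24 h. HT29 and DLD1 are established human colorectal adenocarcinoma lines, and no genetic change or drug was applied to either. The other 2 arrays held HT29 and DLD1 after the same time in the same medium with 10 mM glucose added, and they serve to show which differences between the lines were also there with glucose. Each line and medium had 1 single-colour array, so no difference below has a replicate check, a test or an error, and a single array for each line and medium limits how precise any value is. A line stands for 1 culture here, and the labels do not say whether cultures were repeated.

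A cell that loses glucose loses its main fuel for glycolysis, the sugar donors for protein glycosylation, and much of its carbon for nucleotides and lipids. Glutamine can still feed the tricarboxylic acid cycle. Cells answer such a loss with stress programs, among them the heat shock response driven by HSF1, the oxidative stress response driven by NRF2, the amino acid response driven by ATF4 and the unfolded protein response of the endoplasmic reticulum, and they often slow DNA synthesis. HT29 is a line long known for its ability to take on an enterocyte-like state when it is grown without glucose over many passages.

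Levels are given as normalized log2 intensity of a gene's probes, and differences as HT29 minus DLD1 on the same scale, so that a difference of 1 is 2-fold and a positive value means higher in HT29. A constant of 50 was added to every signal before the logarithm, which makes the differences of dim genes smaller than they are. Levels of different genes come from different probes and are not compared. Of 17606 genes with a symbol on the array, 16267 were above the blank spots on at least 1 of the 2 arrays without glucose. Between 85.5% and 87.0% of probes were above the blank spots on each of the 4 arrays. The median difference over all 16267 genes was 0.01 without glucose and 0.00 with glucose.

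Both arrays without glucose carried the epithelial marker EPCAM, but not every colon epithelium marker stood clear of the blank spots on both. EPCAM, an adhesion protein of epithelial cells, read 12.92 in HT29 and 13.01 in DLD1. Of 11 measured colon epithelium markers, LGALS4 and KRT20 were at least 2-fold higher in HT29, while CDX2, CDH17 and KRT19 were at least 2-fold lower. CDX2, the transcription factor of intestinal identity, read 5.88 in HT29 and 7.97 in DLD1. CDH17 read 5.79 in HT29 and 8.56 in DLD1, so both markers were near the level of the blank spots in HT29. LGALS4 read 11.97 in HT29 and 6.13 in DLD1. Of the 4 immune, 3 fibroblast, 3 endothelial and 3 neuronal markers measured, none was 2-fold apart when the probes of a gene were averaged. The 2 probes of the neuronal marker TUBB3 disagreed. One read 7.12 in HT29 and 8.92 in DLD1, a difference of -1.80, and the other 5.86 and 5.88. The immune markers CD3E (5.78 in HT29, 5.78 in DLD1) and ITGAM (5.76 in HT29, 5.75 in DLD1) were near the level of the blank spots. The immune markers CD68 (7.17 in HT29, 6.60 in DLD1) and CD14 (6.45 and 6.22) stood farther above it. So did the fibroblast marker DCN by one probe (7.34 and 7.36). Another probe of DCN was below the blank spots in both lines (5.70 in HT29 and 5.70 in DLD1) and was left out of its level.

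Without glucose, 756 genes were at least 2-fold higher in HT29 than in DLD1 (4.65% of the genes measured) and 758 were at least 2-fold lower (4.66%). With glucose, the same count gave 497 higher (3.06%) and 435 lower (2.67%). The lines were thus farther apart in more genes without glucose, 1514 without glucose (9.31%) against 932 with glucose (5.73%). The standard deviation of the difference over all genes was 0.640 without glucose and 0.550 with glucose. When each array was scaled on its median in place of quantile normalization, 954 genes were higher and 563 lower, so that 62.9% of the genes 2-fold apart were higher in HT29, against 49.9% with quantiles. The near equality of both directions therefore depends on the scaling.

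Of these 1514 genes, 288 were at least 2-fold higher in HT29 in both media (1.77%) and 302 at least 2-fold lower in both (1.86%), together 590 (3.63%). A further 274 genes were at least 2-fold higher in HT29 without glucose and under 0.5 log2 apart, or lower in HT29, with glucose (1.68%), and 198 were lower without glucose by the same rule (1.22%). These 472 genes (2.9%) are called starvation differences here. The 194 higher and 258 lower genes that remain lay between 0.5 and 1 log2 apart with glucose. No gap separates these groups, and the 0.5 limit sets their size. Their membership depended on the processing. With the local background subtracted 121 of the 274 and 70 of the 198 still met the rule, with the deposited values 154 and 125, and with median scaling 213 and 125. The plot of both differences shows the starvation differences as a vertical band around 0 with glucose, with ZFAND2A, HMOX1, DUSP1 and KRT17 at its top and ETV3, NUPR1 and ACAT2 at its foot.

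**Figure D1:**
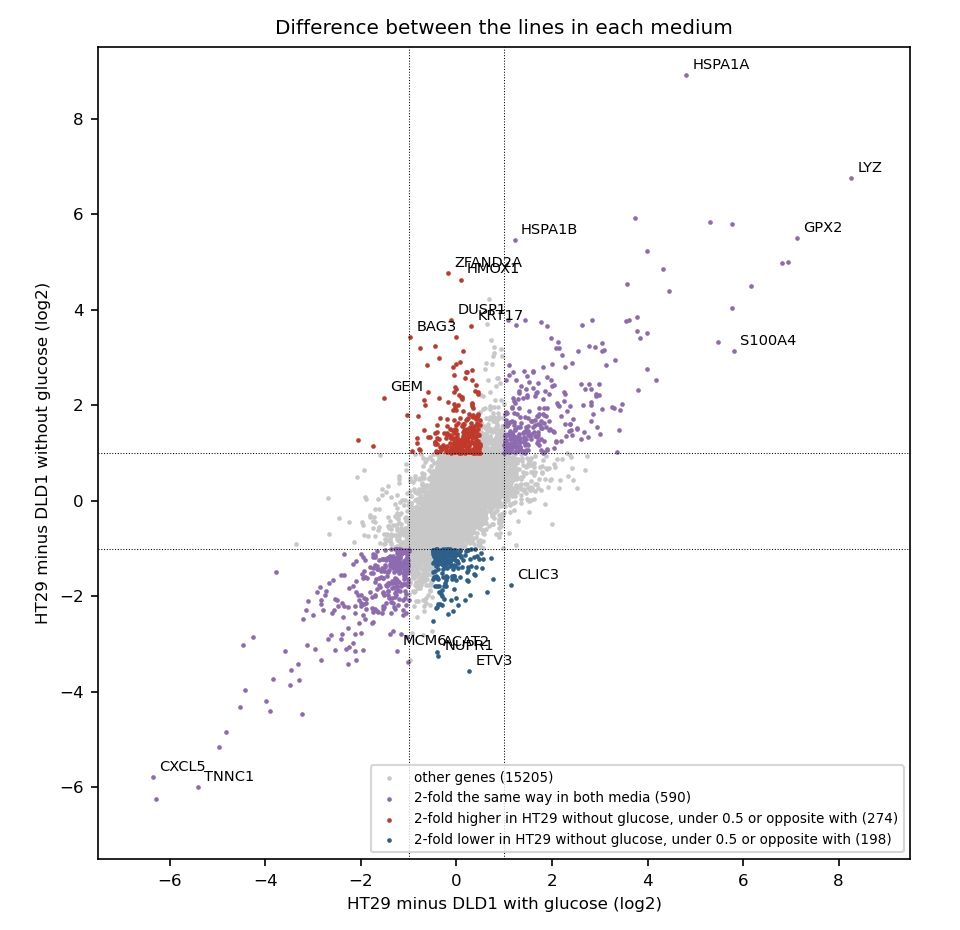
Difference between the lines, HT29 minus DLD1 in log2 units, without glucose (vertical axis) and with glucose (horizontal axis), 1 point for each of 16267 genes, with dotted lines at 2-fold. Red points are the 274 genes and blue points the 198 genes that were 2-fold apart without glucose and under 0.5 log2 apart, or opposite, with glucose, and purple points are the 590 genes 2-fold apart the same way in both media.

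Most starvation differences went with the larger move in HT29. Of the 274 higher genes, 184 were at least 2-fold higher in HT29 without glucose than in HT29 with glucose, and 14 were at least 2-fold higher in DLD1 without glucose than in DLD1 with glucose. For 246 of the 274 (89.8%) the difference between media was larger in HT29. Of the 198 lower genes, 96 were at least 2-fold lower in HT29 without glucose than with it, and 17 were at least 2-fold higher in DLD1 without glucose than with it. The larger difference was in HT29 for 149 of the 198 (75.3%). That share was 73.3% of the 288 genes higher in both media and 45.7% of the 302 lower in both. Among genes 2-fold apart with glucose but not without, it was 83.2% of the 107 higher and 74.6% of the 59 lower. A larger move in HT29 was therefore not particular to the starvation differences. In 84 of the higher and 86 of the lower genes neither line moved 2-fold by itself, so that smaller moves made up the gap. In RNA from whole cultures, a gene that is weaker in every cell and a gene that is present in fewer cells cannot be told apart.

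The 3 highest starvation differences were those of ZFAND2A, HMOX1 and DUSP1. ZFAND2A, a proteasome-associated zinc finger protein induced by arsenite and heat, read 13.38 in HT29 and 8.61 in DLD1 without glucose, against 7.24 in HT29 and 7.43 in DLD1 with glucose. HMOX1, the enzyme that breaks down heme, read 12.75 in HT29 and 8.12 in DLD1 without glucose, against 7.88 in HT29 and 7.79 in DLD1 with glucose. DUSP1, a phosphatase that turns off MAP kinases, read 10.53 in HT29 and 6.76 in DLD1 without glucose, against 6.33 in HT29 and 6.44 in DLD1 with glucose. In all of them 1 array stood high, that of HT29 without glucose, and the other 3 lay far below it. The difference without glucose was 4.76 (27.2-fold) for ZFAND2A, 4.63 (24.8-fold) for HMOX1 and 3.78 (13.7-fold) for DUSP1.

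KRT17, a keratin of injured and basal epithelia, read 9.41 in HT29 and 5.76 in DLD1 without glucose, against 6.06 in HT29 and 5.75 in DLD1 with glucose. CDKN1A, the cyclin-dependent kinase inhibitor p21, read 10.37 in HT29 and 7.14 in DLD1 without glucose, against 6.19 in HT29 and 6.65 in DLD1 with glucose. PPP1R15A, the phosphatase subunit that restores translation by acting on eIF2α, read 10.67 in HT29 and 7.80 in DLD1 without glucose, against 6.55 in both lines with glucose. KRT17 was near the blank spots in DLD1 in both media, while CDKN1A and PPP1R15A were also somewhat higher in DLD1 without glucose than with it. The differences without glucose were 3.66, 3.23 and 2.87 for these 3 genes, in that order.

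The rest of the 15 highest starvation differences were BAG3 (3.43), HSPA6 (3.43), DNAJB1 (3.20), the dioxygenase gene JMJD6 (3.14), the transcription elongation factor gene ELL2 (2.99), SERTAD1 (2.90), NDRG1 (2.84), CLGN, which encodes the chaperone calmegin (2.79), and the RNA helicase gene DDX10 (2.73). NDRG1, a gene induced by hypoxia and other stresses, read 10.22 in HT29 and 7.38 in DLD1 without glucose, against 5.99 in HT29 and 6.61 in DLD1 with glucose. CLGN read 8.90 in HT29 and 6.11 in DLD1 without glucose, against 6.07 in HT29 and 6.13 in DLD1 with glucose. JMJD6 and SERTAD1 were lower in DLD1 without glucose than in DLD1 with glucose, and higher in HT29, so that both lines contributed to the gap.

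**Figure D2:**
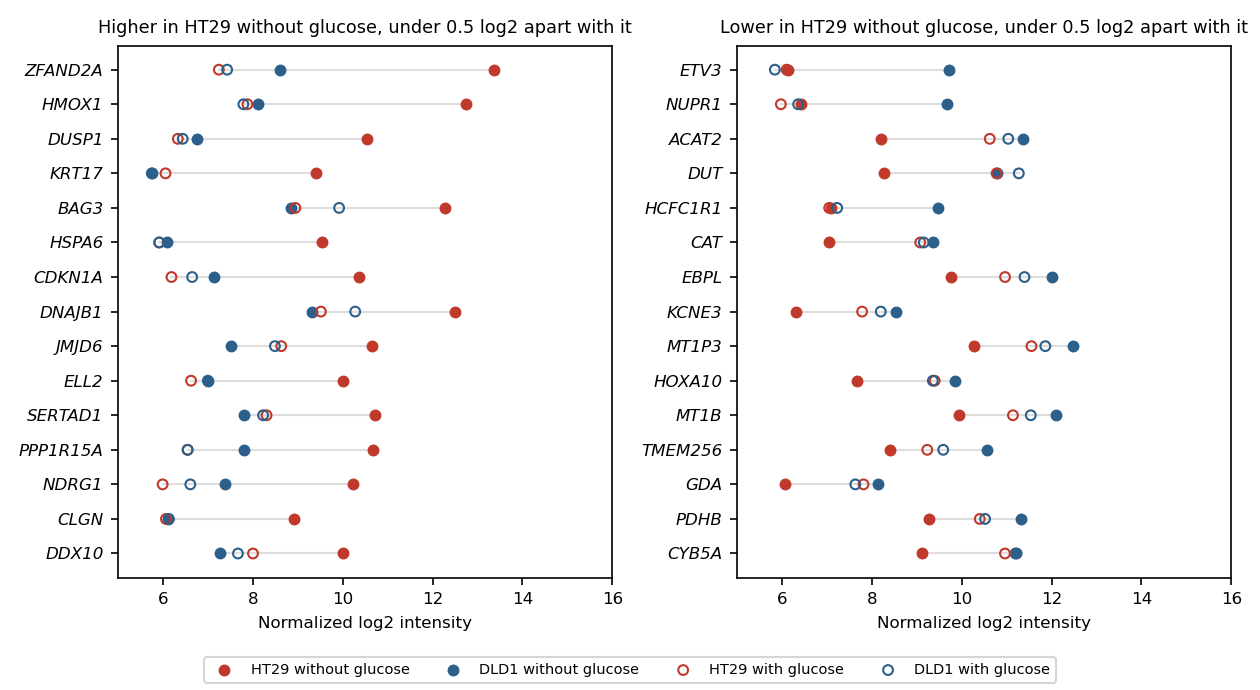
Normalized log2 intensity on the 4 arrays of the 15 genes with the highest (left) and the 15 with the lowest (right) starvation difference. Filled red points are HT29 without glucose and filled blue points DLD1 without glucose, open points are the same lines with glucose, and each grey line spans the 4 arrays. On the left the filled red point lies apart to the right, and on the right the filled blue point is the one far apart in ETV3, NUPR1 and HCFC1R1.

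The heat shock genes had the highest median difference of the 39 lists. Heat shock proteins are chaperones that fold damaged or new proteins, and the HSP70 chaperones work with J-domain partners and with nucleotide exchange factors such as BAG3 and HSPH1. Of 27 measured heat shock genes, 17 were at least 2-fold higher in HT29 without glucose and 0 were 2-fold lower, with a median difference of 1.32, against 0.01 over all genes. With glucose, 4 of the 27 were 2-fold higher and 0 lower, and the median was -0.01. Over all genes, 4.65% were 2-fold higher and 4.66% lower without glucose, and 3.06% and 2.67% with glucose. The counts of this list and of every list below are to be read beside these shares. Of the 17 genes, 11 met the rule for starvation differences. The list's median move without glucose, against the same line with glucose, was 0.96 in HT29 and -0.49 in DLD1, so the lines moved in opposite directions. This list was chosen with earlier results of these arrays known, and its direction is a description.

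HSPA1A, the main stress-inducible HSP70, read 14.86 in HT29 and 5.96 in DLD1 without glucose, against 11.07 in HT29 and 6.26 in DLD1 with glucose. HSPA1B, a nearly identical copy next to it in the genome, read 13.98 in HT29 and 8.53 in DLD1 without glucose, against 10.69 in HT29 and 9.47 in DLD1 with glucose. HSPH1, which exchanges the nucleotide of HSP70, read 14.41 in HT29 and 10.62 in DLD1 without glucose, against 12.60 in HT29 and 11.53 in DLD1 with glucose. All of them were higher in HT29 in both media, and the gap was wider without glucose. HSPA1A had the highest difference of all genes without glucose, 8.91, and with glucose it was 4.81, where other genes such as LYZ (8.27) were higher. The differences of HSPA1B were 5.45 and 1.22. The probes of HSPA1A, HSPA1B and HSPA1L may read each other's transcripts, so how the signal divides among them is uncertain, and HSPA1A was close to the blank spots in DLD1 in both media.

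The partners of HSP70 went the same way. BAG3 read 12.28 in HT29 and 8.85 in DLD1 without glucose, against 8.95 in HT29 and 9.92 in DLD1 with glucose. DNAJB1, a J-domain protein that hands clients to HSP70, read 12.51 in HT29 and 9.31 in DLD1 without glucose, against 9.51 in HT29 and 10.28 in DLD1 with glucose. For both genes the order of the lines with glucose was the opposite one, since DLD1 was higher there. DNAJA1 differed by 2.69 without glucose and 0.23 with glucose, DNAJB4 by 2.57 and 0.18, and CHORDC1, a cochaperone of HSP90, by 2.16 and 0.12. STIP1, which links HSP70 to HSP90, differed by 1.97 and -0.03, and the small heat shock protein genes CRYAB and HSPB1 by 1.32 and 1.02 without glucose. The constitutive chaperone gene HSPA8 and the factor genes HSF1 and HSF2 were under 0.5 log2 apart without glucose, at -0.04, 0.23 and -0.28, in that order. HSPA6, an HSP70 that is nearly silent in unstressed cells, was read by 2 probes that disagreed. One read 13.01 in HT29 and 6.16 in DLD1 without glucose, a difference of 6.85, and the other read 6.04 in HT29 and 6.03 in DLD1.

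HSF1 binds heat shock elements, arrays of inverted GAA units in promoters. The element of 3 units, read as GAA, NN, TTC, NN and GAA with N for any base, was searched on both strands in RefSeq promoter windows of GRCh38.p14, each with 250 bases before and 50 after a gene's start. A window was found for 229 of the 274 higher starvation genes, for 161 of the 198 lower ones and for 13016 of all genes measured, some of which have several windows. The element was in a window of 7 of the 229 genes (3.06%), of 0 of the 161 and of 68 of the 13016 (0.522%). Of 23 heat shock genes with a window, 6 held it (26.1%). The 7 genes were ABHD3, CHORDC1, DNAJA1, FAM149A, HSPA6, OSBP and SERPINH1. SERPINH1 encodes the collagen chaperone HSP47, and its difference was 2.71 without glucose and 0.20 with glucose. The windows of the 4 that encode chaperones or cochaperones follow, since these genes carried both the element and a starvation difference. They read 5′ to 3′ on the strand of the gene, with the element in capitals.
HSPA6: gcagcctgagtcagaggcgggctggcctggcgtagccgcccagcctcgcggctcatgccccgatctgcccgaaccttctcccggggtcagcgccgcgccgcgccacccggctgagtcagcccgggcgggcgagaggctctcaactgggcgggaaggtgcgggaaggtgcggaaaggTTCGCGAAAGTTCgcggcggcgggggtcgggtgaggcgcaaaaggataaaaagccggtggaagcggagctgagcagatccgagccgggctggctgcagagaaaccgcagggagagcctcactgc
SERPINH1: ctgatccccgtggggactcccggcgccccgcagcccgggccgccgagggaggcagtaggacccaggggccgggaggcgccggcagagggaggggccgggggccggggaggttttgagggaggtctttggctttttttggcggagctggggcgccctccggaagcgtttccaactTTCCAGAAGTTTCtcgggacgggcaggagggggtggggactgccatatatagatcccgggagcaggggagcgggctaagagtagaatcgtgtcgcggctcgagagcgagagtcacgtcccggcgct
DNAJA1: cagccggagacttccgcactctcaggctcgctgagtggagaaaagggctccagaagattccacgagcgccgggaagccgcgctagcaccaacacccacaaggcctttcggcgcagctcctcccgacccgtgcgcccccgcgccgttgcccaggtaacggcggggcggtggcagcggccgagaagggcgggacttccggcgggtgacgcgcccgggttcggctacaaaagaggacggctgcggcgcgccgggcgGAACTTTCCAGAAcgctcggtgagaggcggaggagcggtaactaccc
CHORDC1: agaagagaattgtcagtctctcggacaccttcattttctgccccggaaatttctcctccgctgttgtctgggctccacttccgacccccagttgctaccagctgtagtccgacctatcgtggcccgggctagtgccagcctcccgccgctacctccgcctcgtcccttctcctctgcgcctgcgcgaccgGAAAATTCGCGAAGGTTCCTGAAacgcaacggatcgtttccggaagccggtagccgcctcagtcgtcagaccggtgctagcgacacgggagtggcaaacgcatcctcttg

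The windows lie at chr1:161524290-161524589 (HSPA6, plus strand), chr11:75562003-75562302 (SERPINH1, plus strand), chr9:33025023-33025322 (DNAJA1, plus strand) and chr11:90223000-90223299 (CHORDC1, minus strand). With the first base of the gene as 0, the element runs over bases -74 to -62 in HSPA6, -76 to -64 in SERPINH1 and 3 to 15 in DNAJA1. In CHORDC1, 3 overlapping matches run over bases -60 to -38. The match is a description of letters, and no binding was measured. Other motifs were searched in the same windows, also on both strands. The AP-1 motif TGACTCA was in 21 of the 229 genes (9.17%), in 2 of the 161 (1.24%) and in 5.12% of all genes with a window, and it was in 18 of the 213 genes with a window that were higher in HT29 in both media (8.45%), a share close to that of the 229. The cyclic AMP element TGACGTCA was in 14 of the 229 (6.11%), among them DUSP1, PPP1R15A and DDX10, in 0 of the 161, in 4 of the 213 (1.88%) and in 3.27% of all. The core of the antioxidant response element, TGACNNNGC, which also overlaps some AP-1 and cyclic AMP sites, was in 27.5% of the 229, 17.4% of the 161 and 18.4% of all. The CCAAT box was about as frequent in the 229 (44.5%) as in all genes (42.4%).

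NRF2 target genes and genes of heme and iron handling formed the list with the next highest median. NRF2 is held in check by KEAP1 and, once released by oxidants, turns on glutathione synthesis and detoxifying enzymes. Of 30 measured genes, 15 were at least 2-fold higher in HT29 without glucose and 1, BLVRB, was 2-fold lower, with a median difference of 1.02 without and 0.18 with glucose. Those counts were 8 higher and 3 lower when the local background was subtracted. Of the 15, 6 were also 2-fold higher with glucose and 5 met the rule for starvation differences. GCLM, a subunit of the enzyme that starts glutathione synthesis, read 12.21 in HT29 and 9.34 in DLD1 without glucose, against 9.79 in HT29 and 9.04 in DLD1 with glucose. Its partner subunit GCLC differed by 2.18 without and 0.55 with glucose. The autophagy receptor gene SQSTM1 differed by 1.28 and 0.18, and the sulfiredoxin gene SRXN1 by 1.26 and 0.17. By contrast, the aldo-keto reductase genes AKR1B10 (3.85 and 3.77) and AKR1C3 (3.52 and 3.98), the ferritin light chain gene FTL (1.53 and 1.77) and the iron exporter gene SLC40A1 (1.50 and 2.52) were higher in HT29 in both media. NFE2L2, which encodes NRF2, was close in both lines without glucose, at 10.63 in HT29 and 10.71 in DLD1. The AKR1C genes resemble each other, so their probes may share signal.

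**Figure D3:**
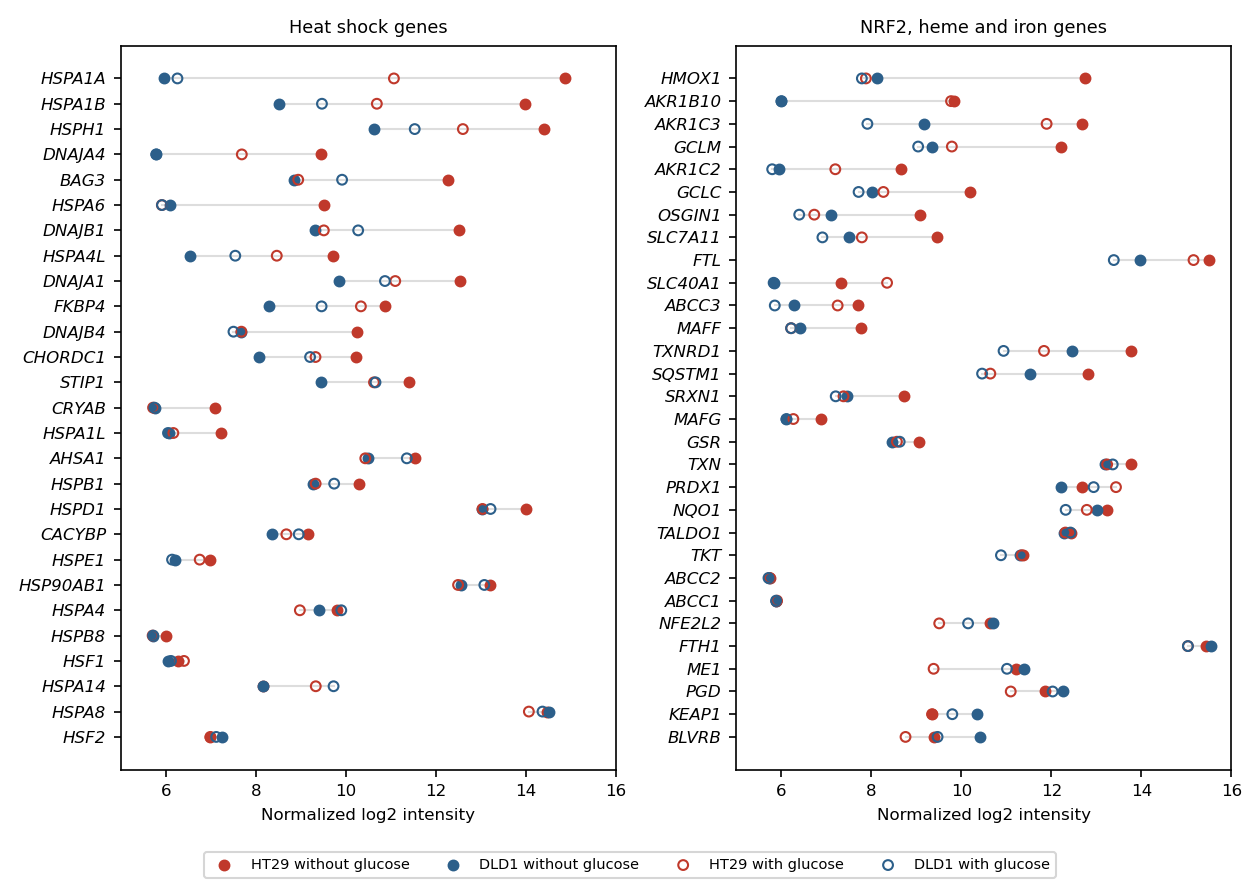
Normalized log2 intensity on the 4 arrays of the 27 measured heat shock genes (left) and the 30 measured NRF2, heme and iron genes (right), in order of the difference between the lines without glucose. Filled points are without glucose and open points with glucose, HT29 in red and DLD1 in blue. In BAG3, DNAJB1, DNAJA1 and STIP1 the filled blue point lies left of the open blue point while the filled red point lies right of the open red one.

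Immediate early genes are those that cells switch on within minutes of a signal. Of 37 measured genes, 14 were at least 2-fold higher without glucose and 2 lower, with a median of 0.47 without glucose and 0.00 with glucose. With glucose, 3 were 2-fold higher and 5 lower. FOS, a subunit of the transcription factor AP-1, read 10.13 in HT29 and 6.45 in DLD1 without glucose, against 7.40 in HT29 and 6.14 in DLD1 with glucose. JUN, its partner, read 9.99 in HT29 and 6.90 in DLD1 without glucose, against 7.23 in HT29 and 6.45 in DLD1 with glucose. ATF3, a stress factor of the same class, differed by 2.08 without and -0.19 with glucose, and IER5 by 1.78 and -0.81. The 2 lower genes were lower in HT29 in both media: CCN1, a matrix protein gene and YAP target, at -2.48 and -3.22, and DUSP6, a phosphatase that acts on ERK, at -2.16 and -1.94.

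In 5 genes the lines were 2-fold apart in opposite directions in the 2 media. GADD45B, a stress sensor of cell cycle arrest, read 10.01 in HT29 and 8.75 in DLD1 without glucose, against 6.36 in HT29 and 8.42 in DLD1 with glucose. GEM, a small GTPase, read 8.88 in HT29 and 6.73 in DLD1 without glucose, against 5.79 in HT29 and 7.31 in DLD1 with glucose. EGR1, an immediate early transcription factor, read 9.14 in HT29 and 7.34 in DLD1 without glucose, against 6.71 in HT29 and 7.74 in DLD1 with glucose. In these and in NUCB2, which encodes nucleobindin 2, HT29 was the higher line without glucose and the lower one with glucose. CLIC3, a chloride channel protein gene, was the 1 gene of the opposite kind, with 6.88 in HT29 and 8.65 in DLD1 without glucose, against 7.76 in HT29 and 6.61 in DLD1 with glucose. After subtraction of the local background, GADD45B (1.21 without and -1.23 with glucose) and NUCB2 (1.43 and -1.47) were still reversed at 2-fold. GEM (1.30 and -0.59) and CLIC3 (-1.64 and 0.93) kept opposite signs but were under 2-fold apart with glucose. EGR1 (0.92 and 0.11) was no longer reversed.

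Genes of the p53 pathway and of growth arrest were 2-fold higher in HT29 without glucose in 10 of 33 cases and lower in 2, against 4.65% higher and 4.66% lower over all genes. The median was 0.08, but 0.36 with the local background subtracted and 0.45 in the deposited values. After CDKN1A, the highest were CDKN2B, the kinase inhibitor p15, at 2.61 without and 1.48 with glucose, and the nuclease gene AEN at 2.52 and 0.66. CDKN2A, which encodes p16 and p14ARF, differed by 2.02 without and 3.47 with glucose, so its gap was wider with glucose. CDKN1B, which encodes p27, and the repair gene DDB2 were the 2 lower ones, at -1.48 and -1.57. Members of this list therefore stood on both sides.

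The amino acid response driven by ATF4 had 39 measured genes, with a median of 0.09. Of them, 8 were 2-fold higher and 3 lower in HT29 without glucose, against 4.65% and 4.66% over all genes. The list's median move without glucose, against the same line with glucose, was 1.25 in HT29 and 0.96 in DLD1, so both lines moved the same way. The list's median difference between the lines was 0.45 with median scaling and 0.70 in the deposited values. NUPR1, a stress-induced chromatin protein, was the lowest member, at 6.41 in HT29 and 9.67 in DLD1 without glucose, against 5.97 in HT29 and 6.36 in DLD1 with glucose. Here the DLD1 array without glucose stood apart. CTH, the enzyme that releases cysteine from cystathionine, differed by 2.01 without and -0.65 with glucose, and SESN2, a sestrin that restrains mTORC1, by 1.41 and -0.46. PHGDH, the first enzyme of serine synthesis, was lower in HT29 in both media, at -2.79 and -2.40.

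Chaperones and degradation factors of the endoplasmic reticulum were 2-fold higher in 5 of 29 cases and lower in 0, with a median of 0.42 without and -0.02 with glucose. DNAJB9, a cochaperone of the unfolded protein response, read 10.79 in HT29 and 8.96 in DLD1 without glucose, against 7.33 in HT29 and 7.08 in DLD1 with glucose. Both lines were higher without glucose, HT29 by more. SEC61A1, the channel through which proteins enter the endoplasmic reticulum, differed by 1.39 and -0.13, and HYOU1, a glucose-regulated chaperone, by 1.35 and 0.14. DERL1, a part of the degradation channel, was higher in HT29 in both media, at 2.49 and 1.52.

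Autophagy and lysosome genes were 2-fold higher in 8 of 39 cases and lower in 0, with a median of 0.40 without and -0.06 with glucose. MAP1LC3B, the protein that coats autophagosome membranes, read 11.63 in HT29 and 9.48 in DLD1 without glucose, against 8.16 in HT29 and 8.53 in DLD1 with glucose. MAP1LC3B2 is a close copy of it and differed by 1.72 and -0.19, so the 2 are not independent. ATG4A, a protease that processes such proteins, differed by 1.74 and -0.35. The lysosomal protease gene CTSS differed by 1.78 without and 2.19 with glucose, so it was higher in HT29 in both media. With glucose it was below the blank spots in DLD1.

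The plot of list medians sets these groups side by side. Heat shock, NRF2, immediate early, endoplasmic reticulum and autophagy genes had their medians above 0.3 without glucose and at most 0.18 with glucose. At the other end were genes of DNA replication and of sterol and fatty acid synthesis. The medians moved with the processing. With the local background subtracted, that of the heat shock genes was 0.90, of the NRF2 list 0.45, of the immediate early genes 0.24, of DNA replication -0.48 and of sterol and fatty acid synthesis -0.17, against -0.08 with glucose for the last. In the deposited values the heat shock median was 2.75, the NRF2 median 1.95, the immediate early median 1.17, the endoplasmic reticulum median 1.06, the autophagy median 0.87 and the sterol median -0.84, beside 0.16 over all genes. Genes for cytosolic ribosomal proteins had a median of 0.01, with 1 of 44 2-fold higher and 0 lower, but of 0.34 with median scaling, 0.44 in the deposited values and -0.23 with cyclic loess, so no direction is given for them.

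Genes of DNA replication were lower in HT29 without glucose. Of 45 measured genes, 19 were at least 2-fold lower and 0 higher, with a median of -0.84 without glucose, and with glucose 5 were lower, 3 higher and the median was -0.20. MCM6, a subunit of the helicase that opens the DNA, read 7.20 in HT29 and 10.35 in DLD1 without glucose, against 10.03 in HT29 and 11.28 in DLD1 with glucose. RRM2, the regulated subunit of the enzyme that makes deoxynucleotides, read 9.07 in HT29 and 11.94 in DLD1 without glucose, against 11.50 in HT29 and 12.55 in DLD1 with glucose. TYMS, which makes thymidylate, read 8.11 in HT29 and 10.88 in DLD1 without glucose, against 10.51 in HT29 and 11.45 in DLD1 with glucose. In each of these genes both lines were lower without glucose than with it, HT29 by more. With the local background subtracted, MCM6 differed by -2.17 without and -2.03 with glucose, so its gap was about the same in both media. RRM2 differed by -3.02 and -1.55 with that correction. DUT, which keeps uracil out of DNA, read 8.27 in HT29 and 10.79 in DLD1 without glucose, against 10.78 in HT29 and 11.27 in DLD1 with glucose. PCNA, the sliding clamp, differed by -2.14 without and -0.65 with glucose, and the helicase subunit genes MCM2 by -1.65 and -0.23, MCM4 by -1.41 and -0.19, and MCM5 by -2.19 and -1.06. The list's median move without glucose was -1.26 in HT29 and -0.51 in DLD1.

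Mitosis genes showed less of a gap. Of 50 measured genes, 5 were 2-fold lower in HT29 without glucose and 1 higher. The list's median was -0.32 without and 0.12 with glucose. With the local background subtracted, 2 were lower and 4 higher without glucose, and the median was -0.13. The balance of the counts therefore depends on the processing. The 5 lower genes of 50 compare with 4.66% lower over all genes. Their median move without glucose was -1.43 in HT29 and -0.88 in DLD1, so both lines were lower. CENPM, a centromere protein gene, differed by -1.82, the kinase gene AURKB by -1.60 and the cyclin gene CCNA2 by -1.43 without glucose. With the local background subtracted, CENPM differed by -1.43 without and -0.70 with glucose. AURKB (-0.66 and -0.60) and CCNA2 (-0.90 and -0.82) then had about the same gap in both media. CKS2, a small partner of cyclin-dependent kinases, was the higher one, at 1.21 without and 0.29 with glucose.

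Genes of sterol and fatty acid synthesis, many of them targets of the SREBP factors, were 2-fold lower in HT29 without glucose in 13 of 36 cases and higher in 0, with a median of -0.46. With glucose, 3 were lower and 1 higher, with a median of -0.20. ACAT2, which joins acetyl-CoA units at the start of the pathway, read 8.21 in HT29 and 11.37 in DLD1 without glucose, against 10.62 in HT29 and 11.04 in DLD1 with glucose. Only the HT29 array without glucose stood low. MSMO1, a sterol demethylase, read 8.75 in HT29 and 11.47 in DLD1 without glucose, against 9.82 in HT29 and 11.14 in DLD1 with glucose. The farnesyl diphosphate synthase gene FDPS differed by -2.03 without and -1.07 with glucose, the fatty acid synthase gene FASN by -1.30 and -0.43, and SREBF2, which encodes an SREBP factor, by -1.27 and -0.19. The list's median move without glucose was -0.48 in HT29 and 0.00 in DLD1.

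Mitochondrial fuel genes were mixed. Their counts stand beside 4.65% of all genes higher and 4.66% lower without glucose, and 3.06% and 2.67% with glucose. Of 31 measured genes of fatty acid oxidation and ketogenesis, 8 were 2-fold lower in HT29 without glucose and 1 higher, with a median of -0.26. With glucose, 3 were lower and 3 higher, with a median of -0.18. ACAA2, a thiolase, differed by -2.34 without and -1.57 with glucose, and the medium-chain dehydrogenase gene ACADM by -1.42 and -0.55. The 1 gene higher without glucose, PLIN2, encodes a coat protein of lipid droplets. It read 9.48 in HT29 without glucose and was below the blank spots in DLD1, so it was at least 13.5-fold higher in HT29. That limit is set against the dimmest probe above the blank spots on the DLD1 array, and the measured level there was 5.70. It depends on the processing, since the difference was 3.78 here and 2.89 with the local background subtracted. PLIN2 was also higher in HT29 with glucose, by 1.44, and by 0.95 with the local background subtracted. Of 31 genes of the tricarboxylic acid cycle, 4 were lower and 1 higher without glucose, with a median of -0.41. That median was -0.19 with median scaling and -0.20 in the deposited values. With glucose, 4 were also lower and 1 higher, with a median of -0.12. PDHB, a subunit of the pyruvate dehydrogenase complex, read 9.26 in HT29 and 11.33 in DLD1 without glucose, against 10.40 in HT29 and 10.52 in DLD1 with glucose. The lines moved apart in that gene, HT29 downward and DLD1 upward. Of 57 genes of oxidative phosphorylation, 8 were lower and 3 higher, and their median of -0.38 became 0.02 when arrays were scaled on the median and 0.15 in the deposited value table, so no direction is given for that list.

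Of 32 genes of glucose uptake and glycolysis, 2 were higher and 1 lower, against 4.65% higher and 4.66% lower over all genes. Their median was -0.03, and it was 0.10 with median scaling and 0.41 in the deposited values. HKDC1, a hexokinase-like enzyme, differed by 3.02, but its 2 probes gave 4.31 and 1.73. SLC2A3, a glucose transporter, was below the blank spots in HT29 and read 7.47 in DLD1 without glucose. By these values it was at least 3.34-fold lower in HT29, a difference of -1.77. SLC2A3 was also lower in HT29 with glucose, at -1.61. With the local background subtracted the differences were -1.15 without and -0.64 with glucose, so that limit depends on the processing. Of 21 genes of glutamine and aspartate metabolism, 3 were higher and 3 lower, with a median of 0.13, against 4.65% higher and 4.66% lower over all genes. The glutamine transporter genes SLC38A5 (3.14 without glucose, 2.55 with glucose) and SLC1A5 (1.47 and 1.22) were higher in HT29 in both media. With the local background subtracted, SLC38A5 differed by 2.17 and 1.03, and SLC1A5 by 2.06 and 0.0036. The gap of SLC1A5 with glucose therefore depends on the processing. ASS1, which makes argininosuccinate from aspartate, was lower in HT29 in both media, at -2.16 and -2.85, as was the ornithine aminotransferase gene OAT at -2.20 and -2.01.

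Among the lowest starvation differences, ETV3, an ETS family repressor, read 6.14 in HT29 and 9.71 in DLD1 without glucose, against 6.10 in HT29 and 5.84 in DLD1 with glucose. The DLD1 array without glucose was the one apart, as it was in NUPR1 and HCFC1R1. CAT, the peroxide-degrading enzyme catalase, read 7.04 in HT29 and 9.35 in DLD1 without glucose, against 9.08 in HT29 and 9.15 in DLD1 with glucose. HOXA10, a homeobox factor of posterior identity, read 7.66 in HT29 and 9.84 in DLD1 without glucose, against 9.40 in HT29 and 9.36 in DLD1 with glucose. In CAT and HOXA10 the HT29 array without glucose was the one apart. Subtracting the local background made both 2-fold lower in HT29 in both media, CAT at -2.34 without and -1.27 with glucose and HOXA10 at -2.40 and -1.18. Of 30 measured HOX genes, 5 were 2-fold lower in HT29 without glucose (HOXA7, HOXA9, HOXA10, HOXB7 and HOXB9) and 0 higher, while with glucose 1 was lower.

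The other genes of that set were EBPL (-2.24), the potassium channel subunit gene KCNE3 (-2.23), the guanine deaminase gene GDA (-2.08), the cytochrome gene CYB5A (-2.06), TMEM256 (-2.16), MT1B (-2.17) and the metallothionein pseudogene MT1P3 (-2.19). The metallothionein genes, whose products bind zinc and copper, are nearly identical copies, and their probes cannot be assigned with certainty. Of 11 metallothionein genes measured, 4 were 2-fold lower (MT1B, MT1H, MT1X and MT2A) and 1, MT1G, higher, with DLD1 below the blank spots. With the local background subtracted, MT1P3 (2.96) and TMEM256 (1.74) had the opposite sign, so their direction depends on the background correction. In all, 9 of the 15 lowest and 15 of the 15 highest starvation differences met the rule with that correction, and CAT, HOXA10, CYB5A and EBPL were the other 4 that did not. With the deposited values KRT17, DDX10 and NUPR1 no longer met it.

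Genes 2-fold apart in both media describe what separated the lines whatever the medium. LYZ, the antibacterial enzyme lysozyme, read 12.61 in HT29 and 5.85 in DLD1 without glucose, against 14.18 in HT29 and 5.91 in DLD1 with glucose. SPINK1, a trypsin inhibitor, read 11.84 in HT29 and 5.91 in DLD1 without glucose, against 9.55 in HT29 and 5.81 in DLD1 with glucose. LYZ was thus lower in HT29 without glucose than with it, and SPINK1 higher. After HSPA1A, LYZ and SPINK1, the highest were the intestinal lectin gene LGALS4 (5.84), the mucin glycosyltransferase gene GCNT3 (5.80), the glutathione peroxidase gene GPX2 (5.50), HSPA1B, the annexin gene ANXA10 (5.22), TM4SF4, the interferon-induced gene IFI27 (4.97), IGFBP6 (4.85) and TFPI, an inhibitor of coagulation (4.54). TM4SF4 was below the blank spots in DLD1 without glucose and, by these values, at least 31.8-fold higher in HT29. Its difference was 5.01, but 3.94 with the local background subtracted, so that limit depends on the processing.

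Of the lowest in both media, BEX3 was below the blank spots in HT29 and read 11.93 in DLD1 without glucose. By these values it was at least 73.6-fold lower in HT29, a difference of -6.23. That limit depends on the processing, since the difference was -2.94 with the local background subtracted. TNNC1, a troponin of slow muscle and heart, read 5.97 in HT29 and 11.96 in DLD1 without glucose, and CXCL5, a chemokine that attracts neutrophils, 5.88 in HT29 and 11.67 in DLD1. The glutathione transferase gene GSTM3 (-5.16), BLVRA, which encodes a biliverdin reductase (-4.45), GDPD3 (-4.40), EPDR1 (-4.19), CD99 (-3.96), the calponin gene CNN3 (-3.86) and the desmosome-associated gene PERP (-3.74) followed. OLR1 was at -4.83 but at 0.23 when the local background was subtracted.

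The reverse group, 2-fold apart with glucose and under 0.5 log2 apart or opposite without it, held 107 higher (0.658%) and 59 lower genes (0.363%). The highest with glucose were KLK10, CLRN3, AQP5, ST3GAL4 and TMEM139, and the lowest CTSL, BLMH, GABARAPL1, AGR2 and GADD45B. CTSL, the lysosomal protease cathepsin L, read 10.12 in HT29 and 10.06 in DLD1 without glucose, against 7.07 in HT29 and 9.75 in DLD1 with glucose. AGR2, a disulfide isomerase of mucus-secreting cells, read 13.65 in HT29 and 13.14 in DLD1 without glucose, against 9.85 in HT29 and 11.94 in DLD1 with glucose. In CTSL and AGR2 the lines came together without glucose, while GADD45B was reversed. Interferon-stimulated and MHC class I genes had 4 of 38 higher and 4 lower without glucose, against 12 higher and 1 lower with glucose. BST2, which tethers viruses to the cell, and B2M, the light chain of MHC class I, were higher in HT29 in both media, at 4.50 and 6.15 for BST2 and at 2.21 and 2.98 for B2M.

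The enterocyte genes bear on the state HT29 can take on without glucose. Of 24 measured absorptive enterocyte genes, 0 were 2-fold apart in either direction without glucose, and with glucose 1 was higher and 1 lower. Over all genes 4.65% were higher and 4.66% lower without glucose, so 0 of 24 says little. In the deposited values 3 of the 24 were higher and 1 lower without glucose. VIL1, the actin-bundling protein of the brush border, read 7.48 in HT29 and 7.12 in DLD1 without glucose, a difference of 0.37, against 1.14 with glucose. DPP4, a brush border peptidase, read 6.90 in HT29 and 6.39 in DLD1 without glucose. Of 22 goblet and secretory genes, 2 were lower in HT29, KLK1 (-2.82) and the trefoil factor gene TFF3 (-2.39), and 0 higher. Those 2 of 22 compare with 4.66% lower over all genes. Of 22 crypt stem and WNT target genes, 2 were higher and 4 lower, among them AXIN2 (-1.52) and SOX9 (-2.03), beside the same all-gene shares. With the local background subtracted, 0 of the 22 were higher and 1 lower, and SOX9 was at -0.92. Of 17 keratins, KRT13, KRT17 and KRT20 were higher and KRT19 was lower.

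The genes 2-fold apart were spread unevenly over the chromosomes, as shown in the plot of shares by chromosome. Chromosome 13 had the highest share of genes higher in HT29, 11.9% of 269 against 2.60% lower, followed by chromosome 8 with 10.1% and chromosome 20 with 8.26%, where 4.65% of all genes were higher. The largest shares of lower genes were on chromosomes 18 (9.29%), 14 (8.17%) and 4 (7.98%), against 4.66% of all genes. With glucose, the shares of higher genes on chromosomes 13, 8 and 20 were 10.4%, 7.61% and 5.93%. On chromosome 13, 15 of the 32 higher genes were 2-fold higher in both media and 4 were starvation differences.

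**Figure D4:**
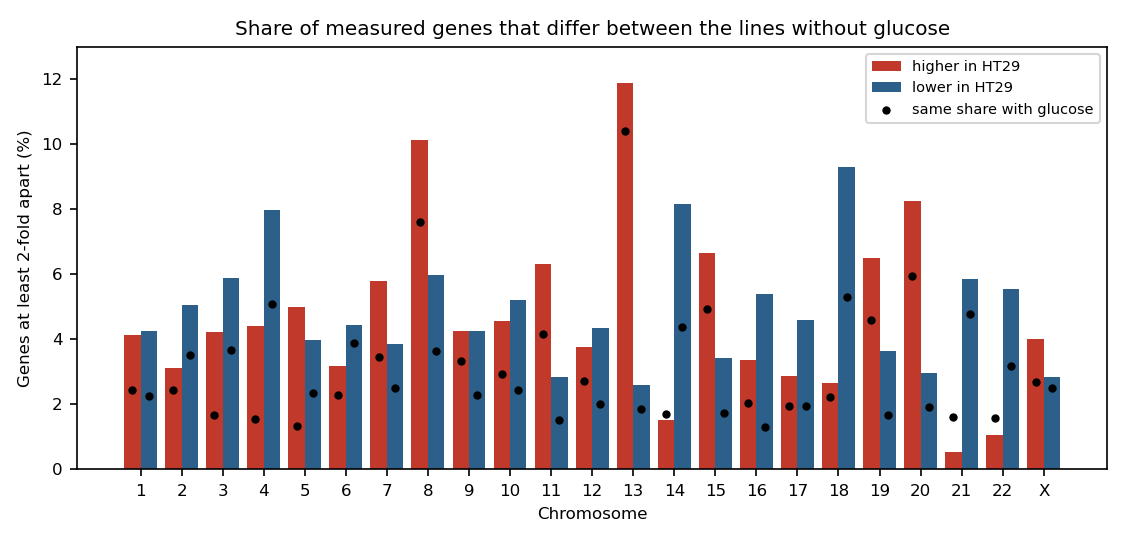
Share of the measured genes of each chromosome, in percent, that were at least 2-fold higher (red bars) or at least 2-fold lower (blue bars) in HT29 than in DLD1 without glucose, with black points for the same share with glucose. The red bars of chromosomes 13, 8 and 20 (11.9%, 10.1% and 8.26%) and the blue bars of chromosomes 18, 14 and 4 (9.29%, 8.17% and 7.98%) are the tallest of each colour.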

How the data were processed

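Per the labels' protocols, glucose or glutamine was given back in a medium that lacked both, and RNA was amplified and coupled to Cy5. By the sample titles 1 medium held both and the other glutamine alone. Per the file headers, the authors' scanner output gives for each spot a median intensity at 635 nm that combines 3 gains and has its background left in. The authors' value table, also linear intensity, served as an alternative, and how it was centred is not stated.

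Spot medians were corrected with normexp (offset 50) and quantile normalized over the 4 arrays with limma 3.58.1 in R 4.3.3, from 27456 spots with 2680 blanks. Of 24460 probes, 20236 had 1 gene symbol, 0 several and 4224 none, and 1 flagged probe was left out. A probe was above background over the 95th percentile of the blank spots. Symbols (2491) were updated through RefSeq. The local background followed the signal (r of the logs 0.904 to 0.966) and was not subtracted. For 1681 genes with 2 probes, the differences from both had r = 0.769, over genes, which are not replicates.

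Groups came from sample titles and characteristics. Genes were counted at 2-fold with no test, and the counting was tested on simulated data. Named genes were the 12 highest and 12 lowest in both media, the 15 highest and 15 lowest starvation differences, the 5 highest and 5 lowest with glucose alone, all reversed genes and up to 4 members of each list by size. Further list members are named as examples chosen after their values were seen. Of the genes lowest in both media, 1 is not reported here. Members, lists and rules were chosen with earlier results of these data known. Alternatives were median scaling, cyclic loess, local background, an offset of 16, the deposited values, probe filters, the brightest probe and other limits. Figures were drawn with matplotlib 3.10.9.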

Additional observations from a re-analysis of the deposited data

Results flagged for a closer look

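In 5 genes the difference between the lines was 2-fold in opposite directions in the 2 media. The difference without glucose minus that with glucose was 3.68 log2 for GEM, 3.33 for GADD45B, 2.89 for NUCB2, 2.83 for EGR1 and -2.91 for CLIC3. With 1 array per line and medium, this contrast between media was not tested. With the local background subtracted, GADD45B and NUCB2 were still 2-fold apart in opposite directions, and EGR1, GEM and CLIC3 were not.

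Probes with no gene symbol entered no count above. Of 3688 such probes above the blank spots on an array without glucose, 142 were at least 2-fold apart (3.85%), 71 higher and 71 lower in HT29, over a range of -2.51 to 4.62.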

How the results depend on the processing

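No paired analysis was possible because each line and medium had 1 array and the labels give no replicate numbers. The count of genes 2-fold apart was larger without glucose than with it in all 9 settings, by 1.37 to 1.67 times. In the order of counts used from here on (all genes 2-fold apart without glucose, starvation differences, both media, and with glucose alone, each higher and then lower), the deposited values gave 2324, 1676, 761, 510, 1017, 786, 350 and 251, and a 4-fold minimum 163, 134, 41, 16, 61, 55, 4 and 5. An offset of 16 gave 1209 lower genes, 314 lower starvation differences, 468 higher and 525 lower in both media, and 174 higher and 103 lower with glucose alone. With a limit of 0.25 log2 in the other medium, starvation differences were 178 higher and 102 lower and glucose-alone genes 54 and 32, and with a limit of 1 log2 they were 468, 456, 209 and 133. With the local background subtracted, 186 genes were higher and 194 lower in both media and 214 and 136 with glucose alone. Of the 756 higher genes 414 were still 2-fold higher there, and of the 758 lower ones 408 were still lower and 59 had the opposite sign. Median scaling gave 169 higher with glucose alone. Of the named genes, ACAA1 (0.68), CDH3 (0.0055), MT1P3 (2.96), OLR1 (0.23) and TMEM256 (1.74) changed sign with the local background subtracted, and the oxidative phosphorylation median was 0.022 with median scaling and 0.15 in the deposited values, where the median of all genes was 0.16. The cause was not tested.

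A gene near the blank spots has a difference that the offset makes smaller, and 1173 genes were above the blank spots on just 1 of the 2 arrays without glucose. A single array for each line and medium gives no error for any value. Probes of 1 gene can disagree. Of 255 genes with a probe 2-fold apart among those with 2 probes, 99 had both 2-fold apart the same way and 0 opposite ways.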

Other observations

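BMP4, a ligand that favours intestinal differentiation, read 8.60 in HT29 and 11.98 in DLD1 without glucose, against 10.90 in HT29 and 11.92 in DLD1 with glucose. ID2 (-1.81 without and -2.86 with glucose) and ID3 (-2.86 and -4.25), targets of BMP signals, were lower in HT29 in both media, while BMP2 differed by 1.68 without and -0.06 with glucose. Of 19 measured BMP, ID and SMAD genes, 2 were 2-fold higher and 4 lower without glucose, against 4.65% and 4.66% over all genes. Of 14 measured genes of the EGF receptor list, 1 was higher and 1 lower, beside the same shares over all genes, with a median of 0.03. HBEGF, a ligand of the EGF receptor, was a starvation difference at 1.37, against -0.20 with glucose, and EREG, another ligand, was lower in HT29 in both media at -1.54 and -2.42.

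Detoxifying enzymes stood on both sides, with 8 of 34 higher and 7 lower without glucose, against 4.65% and 4.66% over all genes. ALDH1A1, a retinal dehydrogenase often used as a stem cell marker, read 9.81 in HT29 and 5.76 in DLD1 without glucose, against 11.50 in HT29 and 5.74 in DLD1 with glucose. AXL, a receptor tyrosine kinase, read 8.55 in HT29 and 5.80 in DLD1 without glucose, against 6.37 in HT29 and 5.77 in DLD1 with glucose. TSPAN8, a tetraspanin of digestive tract tumours, differed by -1.90 without glucose and by 0.63 with glucose.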
